A study of Rattus norvegicus with 6 samples.

Results

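The genes described here are the ATP-binding cassette (ABC) transporters of the rat lung, taken as every entry whose symbol begins with Abc, a subfamily letter from a to g and a number, with at most 1 letter after it. In a table of 19828 entries, 49 symbols matched, and 42 of them reached a value of 1 in 3 or more of the 6 libraries and were tested. The 7 others were Abca12, Abca14, Abca15, Abcb5, Abcc12, Abcg5 and Abcg8, of which Abca15, Abcb5 and Abcg8 were listed at 0 in every library and no value of the rest exceeded 1.65. ABC transporters are membrane proteins that use ATP to move lipids, drugs, conjugated metabolites, peptides and cofactors across membranes, and a few family members bind ATP without transporting anything. In lung they are best known for loading phospholipid into the surfactant granules of alveolar type 2 cells, for removing cholesterol from alveolar macrophages, and for pumping foreign compounds out of epithelium and vessel walls. The members were grouped by known role into 20 tested lipid transporters, 10 drug efflux pumps, 4 mitochondrial transporters and 8 others.

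The libraries came from total lung of Sprague-Dawley rats, 3 from Ahr knockout rats (Ahr-KO) and 3 from wild-type rats (WT). Both genotypes carried the same Sugen-Hypoxia (SuHx) treatment and the same label of day 56, so no untreated lung enters the comparison. Sugen blocks VEGF receptors, and together with low oxygen it gives a rat model of pulmonary arterial hypertension. Ahr encodes the aryl hydrocarbon receptor (AHR), a ligand-activated transcription factor that induces drug-metabolising genes. Neither the age of the rats nor how Ahr was edited is given in the sources used here. Each value is a normalised estimated read count per gene, and libraries are numbered 0, 1 and 2 within a genotype as in the table.

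The estimated depth was 14.2 M to 23.6 M reads in the Ahr-KO libraries and 12.9 M to 21.9 M reads in the WT libraries, with library 2 the shallowest of each group, and 1 read was worth a value of 0.81 to 1.40. Ahr itself stood at 2399, 3923 and 3575 in Ahr-KO libraries 0, 1 and 2, against 2940.0, 2860.4 and 3395 in the WT libraries, which checks no genotype while the edit is not known. Cyp1a1, the P450 gene that AHR induces, was at 0.83 to 10.5 in the Ahr-KO libraries and at 23512 to 37694 in the WT libraries, which matches the genotype labels. The lung markers Sftpc and Scgb1a1 were read at 167882 or more in each library.

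For the called lipid transporters that had a promoter in RefSeq, and for Abca3, the surfactant lipid transporter, the 250 bases before the gene start are shown 5′ to 3′, because AHR with its partner ARNT binds DNA at the core GCGTG. Capitals mark that core, on either strand, so that CACGC is the same core on the opposite strand. The sequences are those of the GRCr8 build and the authors' values rest on rn6.
Abca7 (GRCr8 chr7:10361990-10362239, minus strand): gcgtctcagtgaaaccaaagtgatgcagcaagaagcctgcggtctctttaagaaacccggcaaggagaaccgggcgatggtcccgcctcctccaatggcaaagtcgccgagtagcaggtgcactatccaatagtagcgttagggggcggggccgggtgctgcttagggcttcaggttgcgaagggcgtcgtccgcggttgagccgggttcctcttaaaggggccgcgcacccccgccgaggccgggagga
Abca2 (GRCr8 chr3:28642534-28642783, plus strand): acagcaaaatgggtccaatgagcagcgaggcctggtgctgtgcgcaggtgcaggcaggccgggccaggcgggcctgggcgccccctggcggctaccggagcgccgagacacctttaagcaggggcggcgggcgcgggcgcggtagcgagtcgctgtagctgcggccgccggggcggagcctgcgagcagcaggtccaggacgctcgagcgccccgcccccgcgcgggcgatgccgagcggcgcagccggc
Abcd3 (GRCr8 chr2:212590380-212590629, minus strand): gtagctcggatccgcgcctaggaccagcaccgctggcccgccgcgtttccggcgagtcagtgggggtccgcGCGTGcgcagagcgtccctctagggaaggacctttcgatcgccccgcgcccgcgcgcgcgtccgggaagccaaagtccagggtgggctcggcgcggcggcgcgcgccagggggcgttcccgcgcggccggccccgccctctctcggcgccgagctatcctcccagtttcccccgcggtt
Abcb4 (GRCr8 chr4:26164146-26164395, minus strand): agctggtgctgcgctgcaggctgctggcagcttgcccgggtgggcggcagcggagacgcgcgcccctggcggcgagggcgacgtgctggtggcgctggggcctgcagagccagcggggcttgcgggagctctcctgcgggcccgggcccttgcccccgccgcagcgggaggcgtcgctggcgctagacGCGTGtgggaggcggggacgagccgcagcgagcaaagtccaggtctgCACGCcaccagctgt
Abca3 (GRCr8 chr10:13886834-13887083, plus strand): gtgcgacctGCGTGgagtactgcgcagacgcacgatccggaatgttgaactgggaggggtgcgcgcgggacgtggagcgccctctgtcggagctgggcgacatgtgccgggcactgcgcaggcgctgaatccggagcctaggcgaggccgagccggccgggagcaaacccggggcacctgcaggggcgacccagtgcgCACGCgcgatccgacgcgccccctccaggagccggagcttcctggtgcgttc
The window held the core 0 times in Abca7 and in Abca2, 1 time in Abcd3, 2 times in Abcb4 and 2 times in Abca3. In Abcd3 the core began at position -179 from the gene start, in Abcb4 at -62 and -15, and in Abca3 at -241 and -52. Over the 32 tested members with a promoter in RefSeq, 17 (53.1%) held the core in this window, against 42.9% of 11736 tested genes. A gene was counted here if any of its listed promoters held the core. Counted by single promoter, which is not the same measure, the share was 25.9% of all 33469 promoters of the same length. The core TGACNNNGC, at which NRF2 binds, was found in 0 of the 32, against 12.9% of the tested genes. A match of letters is a description of the window and not a binding site. The promoters of Abca17, Abcb11 and Abcc5 are not shown.

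Among the 42 tested ABC transporters, 5 rose and 2 fell in Ahr-KO lungs. Abca7, Abca17, Abca2, Abcd3 and Abcc5 rose, and Abcb4 and Abcb11 fell. The test was limma with a mean-variance trend on log2(value + 1), with Benjamini-Hochberg adjustment over the 15386 genes tested and a threshold of 0.05. The 7 called members were 16.7% of those tested, against 10.8% of all genes tested. By direction, 11.9% of the members rose, against 4.5% of all genes, and 4.76% fell, against 6.26%. With values rescaled to equal library totals 2 members rose (Abca7 and Abca17) and 2 fell (Abcb4 and Abcb11), and of all genes 448 were then higher (2.91%) and 1314 lower (8.54%), where the deposited scale gave 692 and 963. The median log2 fold change, Ahr-KO over WT, was 0.10 over the members and 0.0085 over all genes, and with equal totals 0.017 and -0.082. The median size of the change without its sign was 0.38 over the members and 0.25 over all genes, on the log2 scale.

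The groups of 3 values did not overlap for 16 of the 42 members (38.1%), with 10 higher and 6 lower in Ahr-KO, close to the 34.3% of all genes tested. Of the 7 called members, 6 were lipid transporters and 1 was a drug efflux pump, and 0 of the 12 mitochondrial and other members passed (limma, lowest adjusted p = 0.14, with 1 of them at an unadjusted p under 0.05 and 0 called by limma-voom). The calls depended strongly on single libraries: between 0 and 8 members rose and between 0 and 4 fell when 1 library was left out. Without Ahr-KO library 2, limma called 0 of 41 members, and of all 15229 genes then tested 135 were higher and 272 lower. Without WT library 2 it called 8 of 41 members higher and 1 lower, beside 930 and 904 of 15181 genes. Ahr-KO library 2 was the highest of its group for 25 of the 42 members (59.5%, against 36.5% of all genes) and Ahr-KO library 1 the lowest for 25 (59.5%, against 32.2%).

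**Figure D1:**
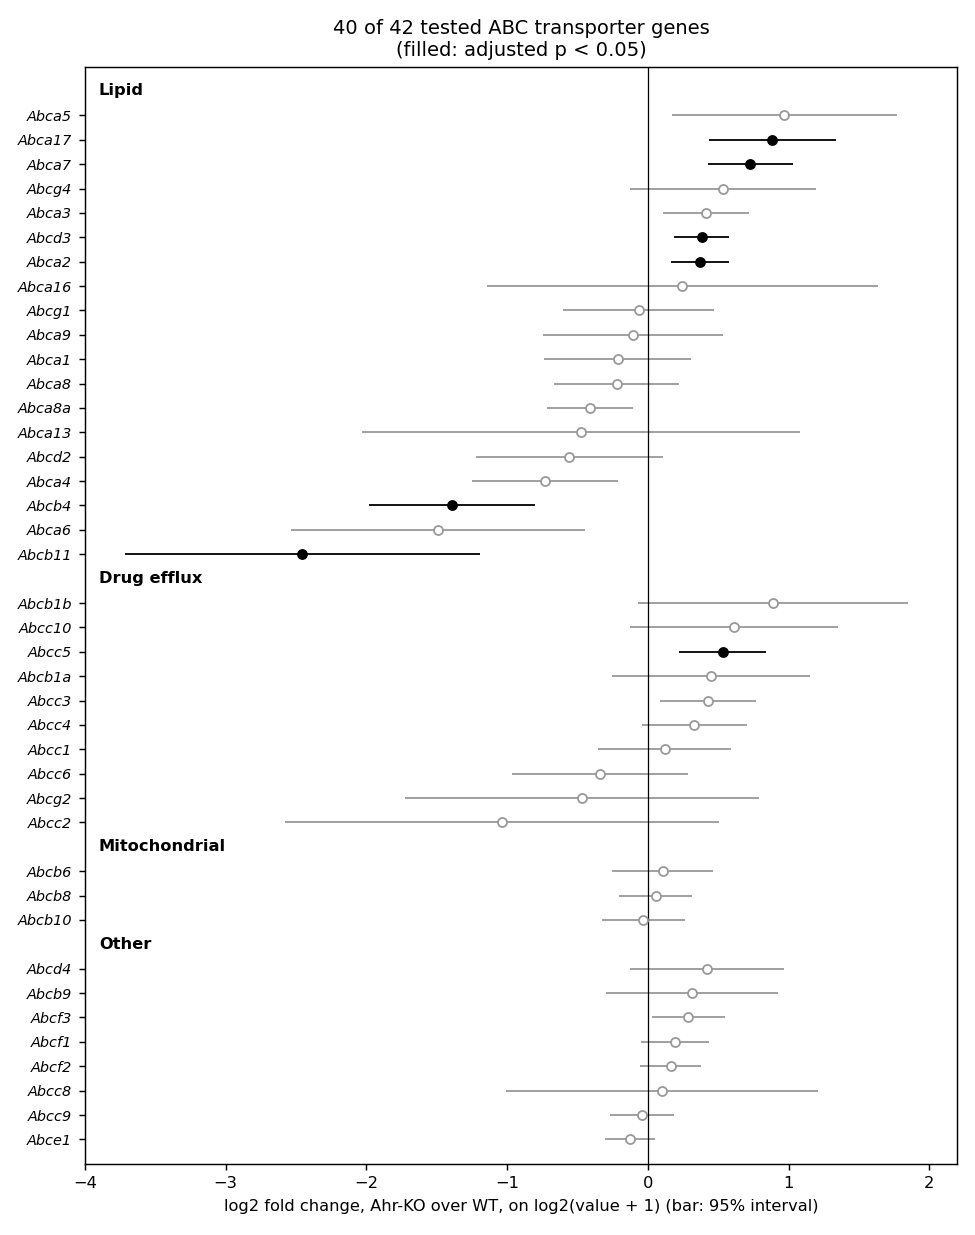
Log2 fold change of 40 of the 42 tested ABC transporter genes, Ahr-KO over WT on the log2(value + 1) scale, with the 95% interval of the limma fit, grouped by role and ordered within each group. The 7 filled points are the called members, 6 of them among the lipid transporters, and the 3 mitochondrial members shown lie between -0.031 and 0.10.

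Among lipid transporters 4 of 20 rose in Ahr-KO lungs (20.0%, against 4.5% of all genes), and 2 of 20 fell, against 6.26% of all genes. The group as a whole did not shift upward: its median log2 fold change was -0.085, with 9 members above 0 and 11 below it. The groups of 3 values did not overlap for 5 members that were higher in Ahr-KO and 4 that were lower. Abca7, a phospholipid transporter that is linked to phagocytosis and, in human, to the risk of Alzheimer's disease, had the lowest p of all members. It stood at 2001, 2246 and 2622 in Ahr-KO libraries 0, 1 and 2, against 1411.5, 1527 and 1204 in the WT libraries. The groups did not overlap, and the lowest Ahr-KO value lay well above the highest WT value. The means were 2289.8 ± 313 in Ahr-KO and 1381 ± 163 in WT (SD, n = 3 each), a log2 fold change of 0.73 ± 0.13 (SE, limma adjusted p = 0.016). The call was lost without Ahr-KO library 1 (adjusted p = 0.057) or Ahr-KO library 2 (0.065), and narrowly without the trend (0.050).

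Abca17, a member described in mouse testis whose role in lung is not settled, also rose. It had 496, 350.4 and 555 in the Ahr-KO libraries, against 232, 227 and 291 in the WT libraries. All Ahr-KO values were above all WT values, with Ahr-KO library 1 nearest to WT. The log2 fold change was 0.88 ± 0.20 (adjusted p = 0.029), the largest rise among the called members. It was lost without the trend (adjusted p = 0.066), without WT libraries 0 or 1 (0.083 and 0.083) and without Ahr-KO libraries 0 or 2 (0.071 and 0.11).

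The rises of Abca2 and Abcd3 were small and even. Abca2, which acts on sterols and sphingolipids in late endosomes and lysosomes, stood at 2550.0, 2573 and 2917 in Ahr-KO and at 1995, 2147 and 2061 in WT. Its log2 fold change was 0.37 ± 0.09 (adjusted p = 0.037). Abcd3, a peroxisomal transporter that brings in branched and dicarboxylic fatty acids and bile acid precursors, stood at 2602, 2651 and 2840.2 in Ahr-KO and at 1990.3, 2006 and 2216 in WT. Its log2 fold change was 0.38 ± 0.09 (adjusted p = 0.030). The groups were separate for both genes, and the spread within each was narrow.

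Both calls depended on the scale and the fit. After quantile normalisation the adjusted p was 0.076 for Abca2 and 0.068 for Abcd3, with equal library totals 0.072 and 0.062, and without the trend 0.090 and 0.080. Both also failed with the library number as a block (0.086 for Abca2). Both passed in only 1 of the 6 fits that left out a library, the one without WT library 2 (adjusted p = 0.046 for Abca2 and 0.020 for Abcd3), with up to 0.12 and 0.11 in the others.

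**Figure D2:**
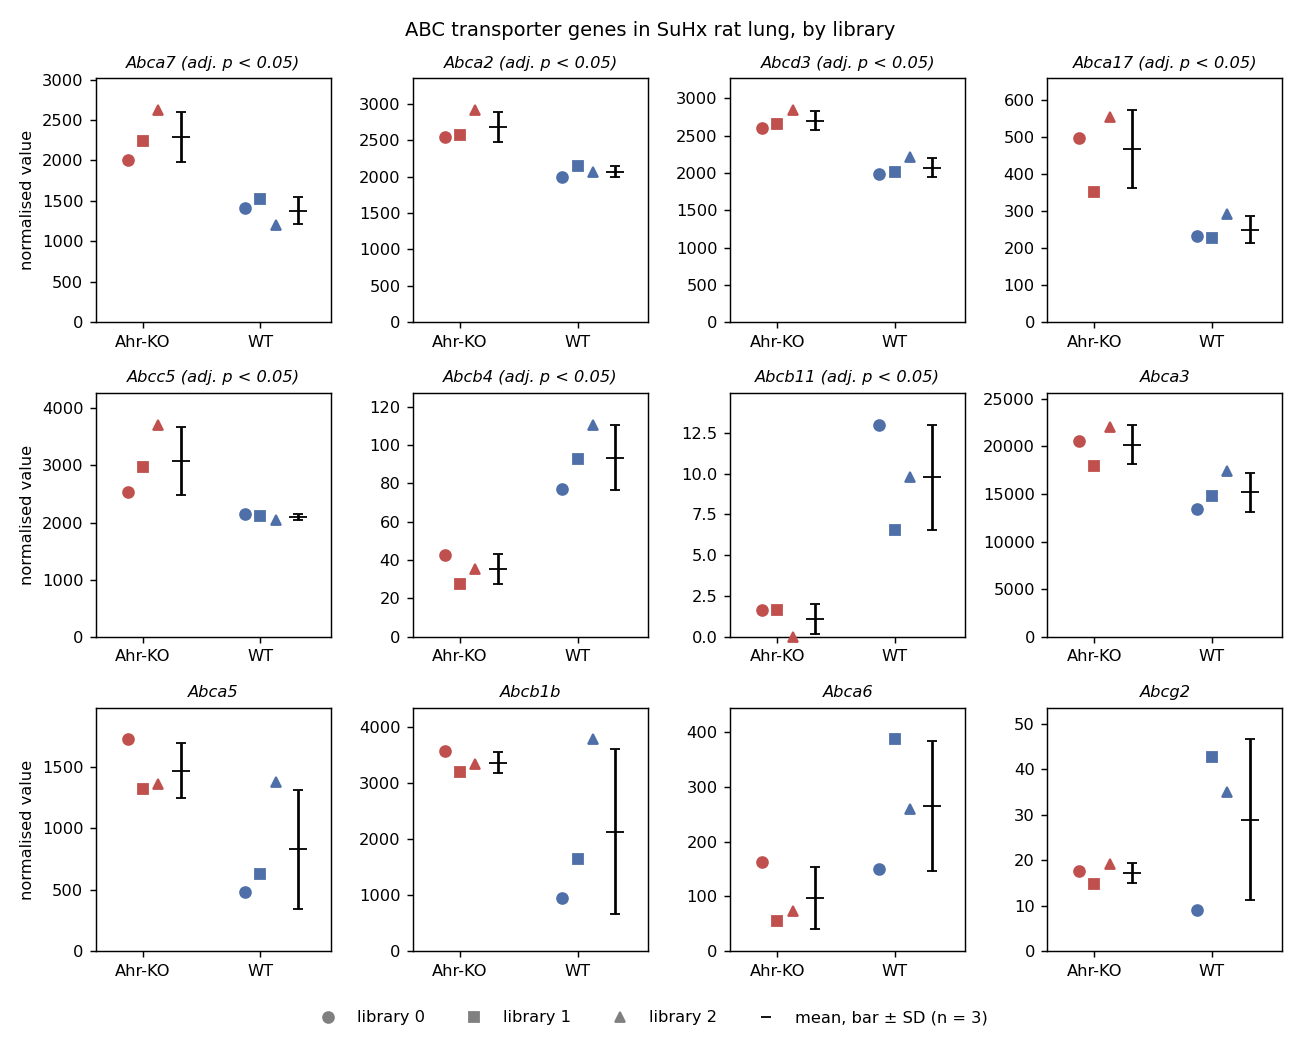
Normalised values of 12 ABC transporter genes by library on linear axes from 0, Ahr-KO at the left of each panel and WT at the right, with the marker shape giving the library number and the bar the mean ± SD of 3 libraries. For Abca5 and Abcb1b the WT triangle, library 2, lies within or above the Ahr-KO values (1379 and 3773), while the other WT libraries lie below them.

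The 2 lipid transporters that fell are known from bile. Abcb4, which flips phosphatidylcholine into bile at the liver cell's canalicular membrane, stood at 42.7, 27.3 and 35.5 in the Ahr-KO libraries and at 77.0, 92.8 and 110.5 in the WT libraries. The groups were clearly apart. The means were 35.2 ± 7.73 in Ahr-KO and 93.4 ± 16.8 in WT, a log2 fold change of -1.39 ± 0.25 (adjusted p = 0.016). Abcb4 was the only member called in each of the 9 other settings that kept all libraries (highest adjusted p = 0.047), but it missed the threshold when WT library 1 was left out (0.051), and likewise for Ahr-KO library 1 (0.057) and library 2 (0.067).

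Abcb11, the bile salt export pump of liver, was near the limit of detection. It stood at 1.61, 1.65 and 0 in the Ahr-KO libraries, about 2, 2 and 0 reads, against 13.0, 6.57 and 9.79 in the WT libraries, about 13, 8 and 7 reads. Every WT value exceeded every Ahr-KO value. The log2 fold change of -2.46 ± 0.55 (adjusted p = 0.030) was -3.83 with a pseudocount of 0.1, and there the call was lost (adjusted p = 0.085). It was lost too when any library other than Ahr-KO library 0 was left out (highest adjusted p = 0.099), and with the library number as a block (0.061). A filter of at least 10 in at least 3 libraries left Abcb11 untested.

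Abca3, the phospholipid pump of the lamellar bodies in which alveolar type 2 cells store surfactant, did not pass. It stood at 20609.6, 17939 and 22038 in Ahr-KO and at 13398, 14774 and 17419 in WT, groups that did not overlap but came close. The log2 fold change was 0.41 ± 0.13 (adjusted p = 0.089), and without WT library 2 it was 0.52 (adjusted p = 0.040). The alveolar type 2 marker list had the same median change, 0.41 on the log2 scale, with 1 of its 10 tested genes higher and 0 lower. In that list 5 genes had an unadjusted limma p under 0.05, and limma-voom called 2. The summed level of that list was 677365 to 792356 in Ahr-KO and 547518 to 612878 in WT. Sftpc gave the largest part of that sum (299807 to 345211 in Ahr-KO and 230761 to 285880 in WT). Lamp3 alone in that list had a fold change below 0 (log2 -0.052, limma adjusted p = 0.90). The part of alveolar type 2 cells in the Abca3 values was not tested.

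The cholesterol exporters gave no call. Abca1, which passes cholesterol and phospholipid to apolipoprotein A-I, stood at 1805, 1550.4 and 1626 in Ahr-KO and at 1435, 1739 and 2845 in WT (log2 -0.21 ± 0.23, adjusted p = 0.58). Abcg1, which passes cholesterol to HDL and whose loss in mice fills alveolar macrophages with lipid, stood at 6327, 3571 and 4433 in Ahr-KO and at 3726, 5298 and 5811 in WT (log2 -0.065 ± 0.23, adjusted p = 0.89). In both genes the groups overlapped widely, and the sign turned without WT library 2 (0.068 for Abca1 and 0.064 for Abcg1). The 95% interval of the change was -0.74 to 0.31 for Abca1 and -0.60 to 0.47 for Abcg1, on the log2 scale. Abcg4, a sterol exporter best known from brain, had a log2 fold change of 0.53 ± 0.29 (adjusted p = 0.27).

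Of 8 tested macrophage markers 0 passed in limma (4 at an unadjusted p under 0.05, and 0 called by limma-voom), with a median log2 fold change of -0.47. Those 4 did not share a sign: Csf1r was above 0 (log2 0.20), and Cd68, Adgre1 and Pparg were below it (-0.85, -0.81 and -0.78). The summed level of that list was 8880.1 to 14714 in Ahr-KO and 10996 to 14281 in WT. Csf1r and Mrc1 made up most of that sum. Marco, a scavenger receptor that marks alveolar macrophages in mouse, was listed at 0 in every library. The part of these cells in the Abca1 and Abcg1 values was not tested.

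Several other lipid members had sizeable changes that did not pass. Abca6, a lipid transporter gene of the Abca5 cluster, stood at 162, 55.4 and 73.7 in Ahr-KO and at 149.9, 386 and 259 in WT (log2 -1.49 ± 0.45, adjusted p = 0.075). Only WT library 0 lay within the range of the Ahr-KO libraries. Without Ahr-KO library 0 the change was -1.93 and passed (adjusted p = 0.028). Abca5, which acts on cholesterol in lysosomes, stood at 1721.5, 1321 and 1360.1 in Ahr-KO and at 478, 625 and 1379 in WT (log2 0.97 ± 0.35, adjusted p = 0.11). WT library 2 alone reached the Ahr-KO range, and without it the change was 1.41 and passed (adjusted p = 0.0063). Without that library and Ahr-KO library 2 together it was 1.46 (adjusted p = 0.034).

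Abca4, the retinoid flippase of photoreceptors, was at 46.3 to 55.9 in Ahr-KO and at 73.1 to 106 in WT, and Abca8a, a relative of Abca6, at 2694 to 3769 and at 3822 to 4459. Neither pair of groups overlapped, but neither gene passed (log2 -0.73, adjusted p = 0.077, and log2 -0.41, adjusted p = 0.091). Abca8a passed without Ahr-KO library 0 (log2 -0.53, adjusted p = 0.037). Abcd2, a peroxisomal transporter of fatty acids, had a log2 fold change of -0.56 ± 0.29 (adjusted p = 0.25). Among further tested lipid members, Abca8, Abca9, Abca13 and Abca16 had log2 fold changes from -0.47 to 0.25 with adjusted p of 0.50 or more, and Abca13 and Abca16 rested on 1 to 18 reads per group.

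Among 10 drug efflux pumps 1 rose and 0 fell, so 1 of 10 was called, close to the 10.8% of all genes tested that were called in either direction. Abcc5, which exports cyclic nucleotides such as cGMP, stood at 2539.5, 2978 and 3712 in the Ahr-KO libraries and at 2147, 2114 and 2048 in the WT libraries. The WT values were nearly equal, and each Ahr-KO value lay above them by a different amount. The log2 fold change was 0.53 ± 0.14 (adjusted p = 0.045). It passed in only 1 of the 6 fits that left out a library, the one without Ahr-KO library 0 (0.66, adjusted p = 0.021). It failed after quantile normalisation (adjusted p = 0.076), at equal totals (0.070), without the trend (0.11), with no filter (0.051) and with the library number as a block (0.080). Abcc4, which also exports cyclic nucleotides as well as prostanoids, stood at 993, 865 and 887 in Ahr-KO and at 588, 709 and 918 in WT (log2 0.33 ± 0.16, adjusted p = 0.23). Its groups overlapped through WT library 2, without which it passed (0.50, adjusted p = 0.039).

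For the P-glycoprotein genes WT library 2 stood apart from the other WT libraries. Rats carry Abcb1a and Abcb1b, which both encode this broad drug pump and are close relatives, so reads shared between them leave each level uncertain. The same holds for their relative Abcb4, for Abca8 with Abca8a, and for Abca17 with Abca14, Abca15 and Abca16. Abcb1b stood at 3563, 3193 and 3329 in the Ahr-KO libraries and at 958, 1648 and 3773 in the WT libraries. The Ahr-KO values were even, whereas WT library 2 was above all of them and the other WT libraries were far below. The log2 fold change was 0.89 ± 0.42 (adjusted p = 0.21), and without WT library 2 it was 1.42 and passed (adjusted p = 0.011). Without both libraries numbered 2 it was again 1.42 and did not pass (adjusted p = 0.054). Abcb1a stood at 314, 221 and 229 in Ahr-KO and at 123, 173 and 291 in WT (log2 0.45 ± 0.31, adjusted p = 0.38, and 0.78 with adjusted p = 0.065 without WT library 2). Abcc1, which exports glutathione conjugates and leukotrienes, was likewise highest in WT library 2 (765), with 549 to 629 in Ahr-KO and 439 to 469 in the other WT libraries (log2 0.12, adjusted p = 0.75).

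Abcg2, the breast cancer resistance protein, is induced by AHR ligands in human cells. It stood at 17.7, 14.9 and 19.1 in Ahr-KO and at 9.0, 42.7 and 34.97 in WT. WT library 0 was the lowest of all 6 and the other WT libraries were the highest. On the log2 scale the change was -0.46 ± 0.54 (95% interval -1.72 to 0.79, adjusted p = 0.63), and -1.13 without WT library 0 (adjusted p = 0.093). It rested on about 54 reads in the Ahr-KO group and 86 in the WT group, and the interval spans changes in either direction.

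Abcc3, which exports glucuronide conjugates, stood at 620, 783 and 915 in Ahr-KO and at 569, 594 and 541 in WT, groups that did not overlap (log2 0.43 ± 0.15, adjusted p = 0.11). It passed without Ahr-KO library 0 (0.58, adjusted p = 0.035). Abcc2, a pump of the liver cell's canalicular membrane, stood at 3.22, 0 and 4.09 in Ahr-KO and at 4.998, 4.93 and 4.20 in WT, about 7 reads against 14 over each group (log2 -1.03 ± 0.67, adjusted p = 0.36). Abcc6, whose loss in human causes pseudoxanthoma elasticum, had a log2 fold change of -0.34 ± 0.27 and Abcc10 one of 0.61 ± 0.32 (adjusted p = 0.46 and 0.26).

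Among the mitochondrial transporters 0 of 4 passed (limma, lowest adjusted p = 0.71, 0 at an unadjusted p under 0.05). Abcb6, a porphyrin transporter also found in other membranes, stood at 542, 698 and 743 in Ahr-KO and at 627, 685 and 526 in WT. The groups covered much the same range. Abcb8 was at 385 to 432 in Ahr-KO and at 372 to 411 in WT. Abcb10, which supports haem synthesis, was at 512 to 578 in Ahr-KO and at 504.2 to 655 in WT. The log2 fold changes of these 3 genes lay between -0.031 and 0.10, with 95% intervals between -0.33 and 0.46. The sign turned with equal totals for Abcb8 (-0.036).

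The other members are a mixed set, and 0 of 8 passed. Abcf1, Abcf2 and Abcf3 bind ATP without spanning a membrane and act in translation. Abcf1 stood at 2607, 2623 and 2562 in Ahr-KO and at 2457, 2418 and 1971 in WT (log2 0.19 ± 0.10, adjusted p = 0.27). Abcf2 and Abcf3 also had non-overlapping groups, higher in Ahr-KO (log2 0.16 and 0.29, adjusted p = 0.31 and 0.14). Abce1, which splits ribosomes after translation ends, was slightly lower, at 1494, 1526 and 1565 in Ahr-KO and at 1672, 1663 and 1666 in WT (log2 -0.13 ± 0.08, adjusted p = 0.33). For these 4 genes the groups were separate, yet the size of each change was under 0.30 on the log2 scale.

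Abcc9 encodes the sulphonylurea receptor of the ATP-sensitive potassium channel in vascular smooth muscle and pericytes. It stood at 1032, 921 and 1046 in Ahr-KO and at 1010, 975 and 1104 in WT, and the 95% interval of its log2 fold change was -0.27 to 0.18. Its channel partner Kcnj8 had 93.5, 124 and 166 in Ahr-KO and 209.9, 141 and 180.5 in WT (log2 -0.49 ± 0.25, adjusted p = 0.25). Abcc8, the receptor known from pancreatic beta cells and in human a gene of inherited pulmonary arterial hypertension, stood at 8.06, 3.31 and 9.55 in Ahr-KO and at 3.999, 7.39 and 6.99 in WT (adjusted p = 0.92). Its partner Kcnj11 was at 1.36 to 8.87 and at 3.999 to 12.6 (adjusted p = 0.65). Abcd4, which releases cobalamin from lysosomes, and Abcb9, a lysosomal peptide transporter, had log2 fold changes of 0.42 ± 0.24 and 0.31 ± 0.26 (adjusted p = 0.30 and 0.49).

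In 2 pairs of directly neighbouring ABC genes the fold changes had opposite signs, although Abcb4 was the only 1 of these 4 genes that passed. In the RefSeq annotation of GRCr8, Abcb4, Abcb1b and Abcb1a are consecutive protein-coding genes, as are Abca8, Abca8a, Abca9, Abca6 and Abca5, and Abca17 and Abca3. The value of Abcb1b divided by that of its neighbour Abcb4 was 83.4, 117 and 93.8 in the Ahr-KO libraries, against 12.4, 17.8 and 34.1 in the WT libraries. The value of Abca5 divided by that of Abca6 was 10.6, 23.9 and 18.5 in Ahr-KO, against 3.19, 1.62 and 5.33 in WT. In both pairs every Ahr-KO ratio exceeded every WT ratio. Both pairs were chosen after their values were seen, and the ratios carry no test. Reads shared between Abcb1b and Abcb4 also leave their ratio uncertain. Other tested direct neighbours shared a sign. Abca8, Abca8a, Abca9 and Abca6 were all below 0 (log2 -0.22, -0.41, -0.10 and -1.49), and Abcb1b and Abcb1a were above 0 (0.89 and 0.45). Abca17, which passed, and Abca3, which did not, had fold changes of the same sign, and their annotated spans did not overlap.

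**Figure D3:**
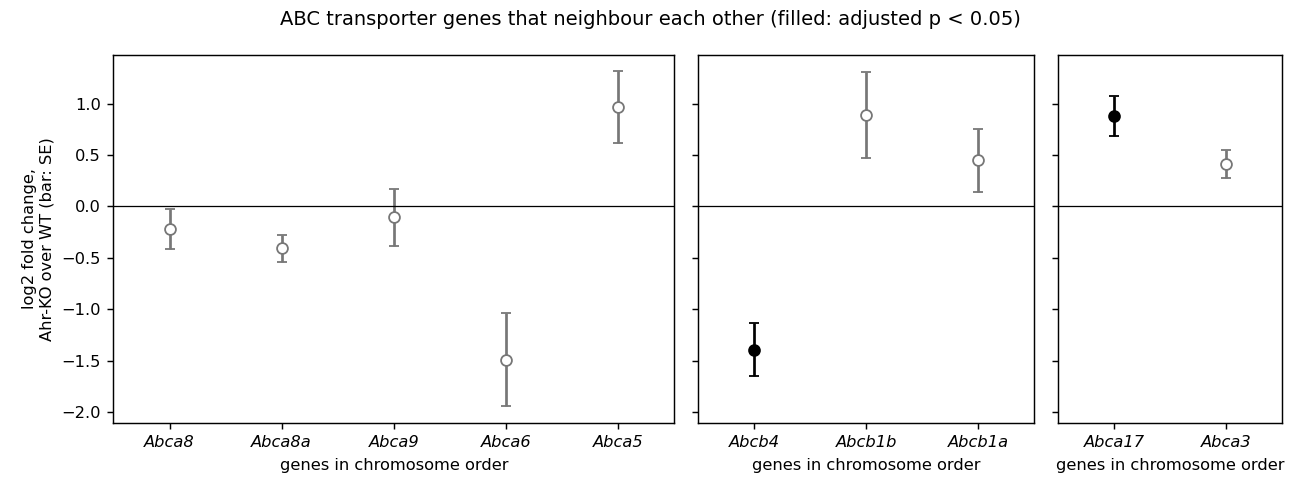
Log2 fold change, Ahr-KO over WT on log2(value + 1), of ABC transporter genes in chromosome order within 3 runs of neighbouring genes, with the SE of the limma fit as the bar. Abcb4 lies at -1.39 beside Abcb1b at 0.89, and Abca6 at -1.49 beside Abca5 at 0.97, while Abca17 and Abca3 lie at 0.88 and 0.41.

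ABC genes with other names were read too. Cftr, the chloride channel of the ABCC subfamily, and Tap1, which with Tap2 carries peptides to MHC class I, had log2 fold changes of -0.12 and 0.040 (adjusted p = 0.73 and 0.83). Tap2 stood at 95.9, 119 and 202 in Ahr-KO and at 246, 455 and 151 in WT (log2 -0.95 ± 0.42, adjusted p = 0.18). The joint entries Abcg3/Abcg3l3 and Abcg3l1/Abcg3l2/Abcg3l4 had log2 fold changes of -0.047 and 0.057 (adjusted p = 0.85 and 0.82).

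Genes of the xenobiotic response work with the drug pumps. Of 13 tested regulators and conjugating enzymes, 5 fell and 0 rose, with a median log2 fold change of -0.43. They were Ahrr, the AHR repressor (log2 -8.21), Nqo1, a quinone reductase (-2.33), Gstp1 and Gstm1, glutathione transferases whose conjugates the ABCC pumps export (-1.01 and -0.75), and Nfe2l2, which encodes NRF2 (-0.86), with adjusted p of 9.4e-06, 0.0036, 0.011, 0.020 and 0.017. Without Ahr-KO library 2, Gstp1, Gstm1 and Nfe2l2 lost their calls (adjusted p = 0.059, 0.081 and 0.080). Gstm1 also lost it without WT libraries 0 or 1 (0.067 and 0.064) and Nfe2l2 without Ahr-KO library 1 (0.051), and both without the trend (0.061 and 0.056).

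In the list of sterol and LXR partners, 1 of 15 fell and 0 rose. The gene was Scd, a fatty acid desaturase, at 2772, 4126 and 3379 in Ahr-KO and at 6086, 6657 and 6889 in WT (log2 -0.95 ± 0.14, adjusted p = 0.0097, and 0.050 without Ahr-KO library 2). The LXR genes Nr1h3 and Nr1h2 did not pass (log2 0.30 and 0.28, adjusted p = 0.094 and 0.26). Of 10 peroxisome partners, 14 iron-sulphur and haem genes and 7 ribosome partners, 0 passed in limma, with medians of 0.085, 0.022 and -0.057 on the log2 scale. At an unadjusted p under 0.05 these lists held 3, 1 and 1 genes, and limma-voom also called 0 of them. In the peroxisome list, Pex14 and Pex19, which serve protein import into peroxisomes, had log2 fold changes of 0.34 and 0.40 with groups that did not overlap (adjusted p = 0.052 and 0.15), beside 0.38 for Abcd3.

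**Figure D4:**
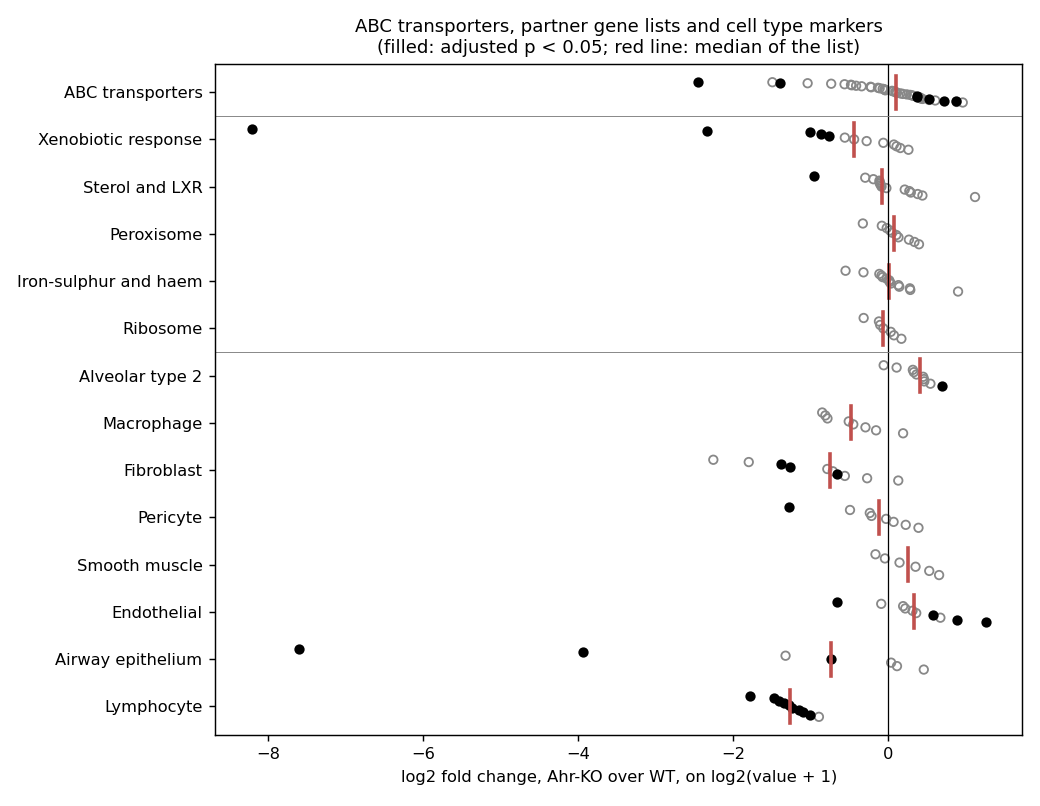
Log2 fold change, Ahr-KO over WT on log2(value + 1), of each tested gene in the ABC transporter set, in the 5 larger partner lists and in the 8 cell type marker lists, filled where the adjusted p was under 0.05, with the median of each list as a red line. The ABC transporters centre at 0.10, the xenobiotic response list at -0.43 and the lymphocyte markers at -1.26.

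In whole lung, fewer cells of a type and less RNA per cell cannot be told apart, and markers of several cell types differed between the genotypes. Lymphocyte markers fell for 9 of 10 genes, with a summed level of 1276 to 1699.7 in Ahr-KO and 3143 to 3856 in WT. Fibroblast markers fell for 3 of 10 (summed level 31451 to 40330.2 in Ahr-KO and 51341 to 64624 in WT). Col3a1 made up most of that sum (18567 to 22253 in Ahr-KO and 29754 to 36337 in WT). Pdgfra alone in that list had a fold change above 0 (log2 0.14, limma adjusted p = 0.76). Airway epithelial markers fell for 3 of 7 (171931 to 281271 in Ahr-KO and 181631 to 224860.0 in WT). The summed lymphocyte and fibroblast levels were lower in Ahr-KO without overlap. The summed airway levels overlapped, but Scgb1a1 made up most of that sum (167882 to 275385 in Ahr-KO and 174785 to 220005 in WT). Of the 3 called airway genes, Scgb3a1 and Foxj1 were lower without overlap (log2 -3.93 and -0.74). The third, Bpifa1 (log2 -7.60), passed the filter only through the WT libraries, at 34.0, 269 and 1386 against 0.81, 0 and 0 in Ahr-KO. Limma-voom called 2 of the 7 airway genes. The fold changes of 3 of the 7 airway genes were above 0. Endothelial markers rose for 3 of 10 and fell for 1 (112336 to 125249 in Ahr-KO and 93578.5 to 114198 in WT), and smooth muscle markers passed for 0 of 6, with 2 at an unadjusted p under 0.05 (30556 to 49089 in Ahr-KO and 22941 to 33157 in WT). Pericyte markers fell for 1 of 8 (16909 to 19543 in Ahr-KO and 15811 to 19341 in WT), beside an even Abcc9. Apart from Marco, no marker in these lists was at 0 in all 6 libraries. The part of cell composition in the values of the ABC genes was not tested.

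**Figure D5:**
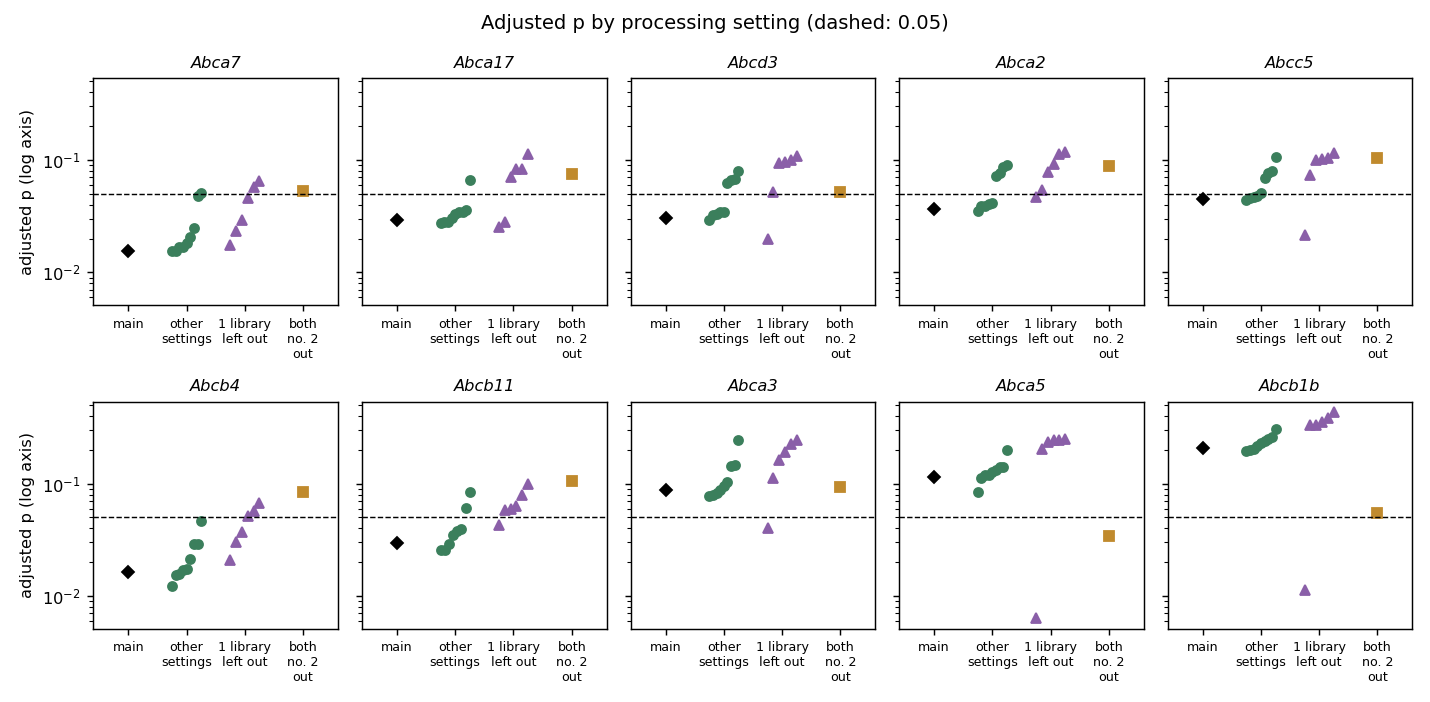
Adjusted p of 10 ABC transporter genes on a log axis in the reported fit, in the other settings with all libraries, in the 6 fits without 1 library and without both libraries numbered 2, with points ordered from low to high within a column and the threshold of 0.05 dashed. Abcb4 stays under the line in each setting that keeps all libraries (highest 0.047), and for Abca5 and Abcb1b the 1 low triangle is the fit without WT library 2 (0.0063 and 0.011).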

How the data were processed

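The authors deposited 1 table of a normalised signal per gene symbol for 6 libraries of rat lung RNA. Per the submitters' processing notes the build was rn6 and reads were checked with FastQC, while the sources used here name no aligner, counter, annotation or strand setting. In each library 97.4% to 97.9% of values above 0 lay within 0.05 of a whole multiple of 1 recurring step, so the signal behaves as estimated counts divided by 1 factor. It was not treated as counts. The step gave the estimated depth and the reads behind a value.

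Columns name the genotype but number libraries from 0 to 2, whereas titles run from 1 to 3, so columns were assigned to groups only. Whether the libraries come from separate animals is not labelled, so the spread behind each p-value may be technical. Values were set to log2(value + 1), entries that reached 1 in 3 or more libraries were kept, and limma 3.58.1 (R 4.3.3, trend, not robust) was fitted with genotype as the term. P-values are 2-sided and adjusted over all 15386 genes. An exact test of 3 against 3 cannot give a p below 0.1. Fold changes on this scale understate those of low genes. The code was tested on simulated data.

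The members and lists were chosen with earlier results of these data known. By rule, values per library are given for called members, the member with the highest mean in each role group, and the 4 largest changes that did not pass; others were added after their values were seen. Alternatives were quantile normalisation, equal totals, no trend, robust limma, no filter, a filter of 10, a pseudocount of 0.1, limma-voom on step-scaled values, the library number as a block, an adjusted p under 0.10, a fold of 1.5 and each library left out. Leaving out both libraries numbered 2 was chosen after seeing the data. Results of 2 tested members that did not pass are not reported here by gene. No column was left unused.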

Additional observations from a re-analysis of the deposited data

How the results depend on the processing

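Against 5 ABC transporters higher and 2 lower, quantile normalisation and equal library totals each gave 2 higher and 2 lower, limma without the trend 0 and 2, and the replicate block 2 and 1. The stricter filter and the pseudocount of 0.1 each gave 5 and 1, an adjusted p under 0.10 gave 6 and 5, and a fold of at least 1.5 gave 2 and 2. Leaving out 1 library gave 0 to 8 higher and 0 to 4 lower, and leaving out both libraries numbered 2, chosen after seeing the data, 1 and 0. For all genes, 692 higher and 963 lower became 448 higher with equal totals, 301 and 651 without the trend, 334 and 565 with the block, 135 to 930 and 272 to 920 without 1 library, and 268 and 285 without both libraries numbered 2. The cause was not tested. The labels do not say whether same-numbered libraries belong together. Deviations of same-numbered libraries correlated at -0.10, 0.069 and -0.074 for libraries 0, 1 and 2, and those of differently numbered libraries at -0.051 to 0.12. With 3 libraries per group these values cannot decide whether the samples pair by number.

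Among genes that did not pass, the log2 fold change turned its sign for Abca9 (0.066) after quantile normalisation and for Abcb8 (-0.036) with equal totals, while Ahr turned to -0.012 in both. Signs also turned in some fits without 1 library, where values spanned -0.42 to 0.068 for Abca1, -0.23 to 0.85 for Abca16, -0.43 to 0.087 for Abca9, -0.11 to 0.082 for Abcb10, -0.00069 to 0.24 for Abcb6, -0.031 to 0.37 for Abcc1, -0.15 to 0.49 for Abcc8, -0.081 to 0.015 for Abcc9, -0.29 to 0.12 for Abcg1, -0.061 to 0.29 for Ahr and -0.95 to 0.086 for Kcnj11. Without both libraries numbered 2 they turned for Abca1 (0.082), Abca16 (-0.058), Abca9 (0.064), Abcb10 (0.042), Abcb6 (-0.092), Abcb8 (-0.0039), Abcc8 (-0.052), Abcg1 (0.097) and Kcnj11 (0.49). Depth limits Abcb11, Abcc2, Abcc8, Abca13 and Abca16, which rest on few reads.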
